A study of Mus musculus with 24 samples.

Results

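The replication-dependent histone genes were followed through 43 probe sets, short groups of array probes that report 1 value each. A probe set was kept when every gene symbol the platform table gives it belonged to the replication-dependent H1, H2A, H2B, H3 or H4 families. The 43 were taken from 23410 probe sets with a gene symbol, among 35556 on the array. Of the 43, 26 carried 1 gene symbol and 17 carried several. The H1 class had 4 probe sets, H2A 4, H2B 9, H3 13 and H4 12, and 1 probe set was shared by H2bc6 (an H2B gene) and H1f4 (an H1 gene). H1f0, a linker histone whose symbol the choice covers, matched no probe set and was not analysed here.

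Bone marrow cells of 24 irradiated mice were profiled, 1 array per mouse. All 4 groups had received 2 Gy of ionizing radiation. Preleukemic pro/pre-B cells came from 3 WT mice and 7 mice labelled Pax5+/-, and leukemic B cells came from 4 WT and 10 Pax5+/- mice. All samples, leukemic ones included, carry a treatment label of 3 weeks, and the labels do not give an unirradiated group, the animals' age or strain, or the type of the Pax5 allele. Per the series' design text the leukemic material is tumor-bearing bone marrow, whereas the preleukemic material is pro/pre-B cells, so stage and type of material cannot be told apart. Cd79a, a signalling subunit of the B-cell receptor, was well above the dim level of the arrays in all 4 groups, with means of 13.10 and 13.04 in preleukemic WT and Pax5+/- cells and 11.46 and 11.54 in the leukemic ones. The question addressed here is how the genes that supply new chromatin with histones differed between preleukemic and leukemic cells and between genotypes.

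Replication-dependent histone genes lie in clusters, carry no introns and are transcribed in S phase, when new DNA must be packaged. Their messenger RNAs end in a stem-loop that is bound by Slbp instead of in a poly(A) tail, and they are degraded when replication stops. H2A, H2B, H3 and H4 form the nucleosome core, and H1 binds the linker DNA between cores. Some of these genes, among them H1f2, H2bc4 and H2bc21, are known also to give polyadenylated messages outside S phase. How the complementary DNA was primed is not given in the sources used here.

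Values are log2 signals, so a difference of 1 is a change of 2-fold. The dim level was set as the 30th percentile of each array, which lay between 5.18 and 5.35. All 43 histone probe sets reached it on at least 3 arrays, and H3c7 was the 1 probe set that did not reach it on every array. The 10 H3 probe sets shared by the same 12 genes had mean signals of 13.30 to 13.60, and the highest value on any array was 14.20. Those 10 sets gave nearly the same numbers on every array, and H4 shared sets 1 and 4 were identical on every array. Shared sets are therefore repeated readings of a few probes and are not independent genes. Since the arrays report bulk RNA, fewer cells of a type and less RNA per cell cannot be told apart.

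The preleukemic WT array 1 stood apart from its group. Its mean over 18 granulocyte markers was 10.38, against 6.50 and 6.54 on the other preleukemic WT arrays, and its mean over 21 mitosis genes was 9.60, against 7.62 and 7.77. Its erythroid mean was 8.82, against 7.03 and 7.02, and its NK-cell mean was 8.64, against 6.68 and 7.55. Its mean over the 43 histone probe sets was 10.76, the highest of all 24 arrays, against 10.13 and 10.23. WT results are therefore given with and without it. By their Y-linked genes, all 3 preleukemic WT arrays came from one sex and all 4 leukemic WT arrays from the other, so in WT mice stage and sex are confounded. A model with that class as a term borrows its size from the Pax5+/- arrays.

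Leukemic Pax5+/- cells had less H1f2, H2bc8 and H2bc6/H1f4 signal and more H4c4, H2bc18 and shared H4 signal than preleukemic Pax5+/- cells, while the shared H3 sets passed the test in neither direction. At an adjusted p below 0.05 (limma, Benjamini-Hochberg over 23410 probe sets), 9 of the 43 histone probe sets were higher in leukemia, 6 were lower and 28 were not called. Of all named probe sets, 22.2% were higher and 37.4% were lower in the same comparison. The shares over the 43 sets, 20.9% higher and 14% lower, were near the background for rises and below it for falls. They count the 5 shared H4 sets, all called higher, as 5 rises. Over the 26 sets of 1 gene the shares were 15.4% and 19.2%, both below the background. The median log2 difference was 0.07 over the histone sets (0.01 over those of 1 gene) and -0.06 over all named probe sets. H4 held 7 of the 9 rises, 5 of them the shared sets, and no fall. H1 held 2 falls and no rise, H2B held 2 of each, H3 held 1 fall and H2A held no call.

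How many small rises were called depended on the centring of the arrays. Array medians were 6.226 to 6.296 in preleukemic and 6.104 to 6.219 in leukemic samples. With every array centred on its median over all probe sets, 17 histone sets were higher and 5 lower in Pax5+/- leukemia, with quantile normalization repeated 13 were higher and 7 lower, and with centring on the named probe sets only 2 were higher and 9 lower. Over all named probe sets the calls were 5203 higher and 8767 lower as deposited, and 6228 and 4721, 6102 and 5144, and 4479 and 12293 under those 3 settings. Of the 6 falls among the 43 histone sets in Pax5+/- mice, those other than H2bc4 were called under all 3 of them, as were the rises of H4c4 and H2bc18. Genes outside the 43 that are named here were not recomputed one by one under these settings. H2bc4 missed the threshold with centring on all probe sets (adjusted p = 0.0736, limma).

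**Figure D1:**
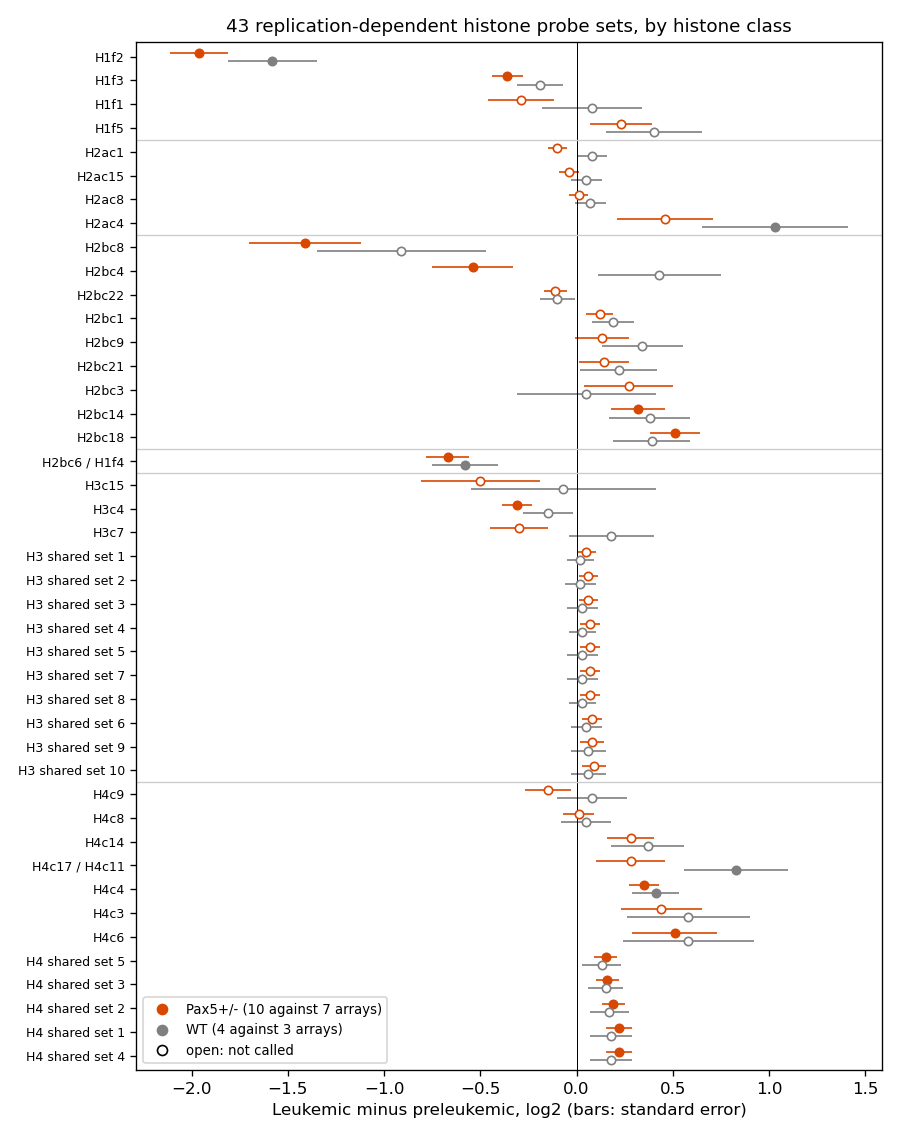
Log2 difference between leukemic and preleukemic cells (horizontal axis, with standard errors) for each of the 43 histone probe sets, in Pax5+/- mice (10 against 7 arrays) and WT mice (4 against 3 arrays); filled points passed an adjusted p of 0.05. H1f2 lies farthest to the left in both comparisons (-1.96 and -1.58), the 10 shared H3 sets lie between 0.02 and 0.09, and the 5 shared H4 sets lie between 0.13 and 0.22.

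The start regions of 4 genes are shown because these genes moved apart although they belong to 1 gene system. H1f2 and H2bc8 fell and H2bc18 and H4c4 rose, each having the smallest adjusted p of its class and direction in Pax5+/- mice among sets of 1 gene. Each line gives the 200 bases before the transcription start, 5′ to 3′ on the gene's strand, from RefSeq on GRCm38.p6, where all 4 genes lie on the plus strand: H1f2 at chr13:23738607-23738806, H2bc8 at chr13:23571200-23571399, H2bc18 at chr3:96269500-96269699 and H4c4 at chr13:23581368-23581567. Capitals mark matches on either strand to the octamer ATTTGCAT, known from H2B promoters, to TATAAA, to CCAAT, to the H1 box AAACACA and to GGTCCG from H4 promoters.
H1f2: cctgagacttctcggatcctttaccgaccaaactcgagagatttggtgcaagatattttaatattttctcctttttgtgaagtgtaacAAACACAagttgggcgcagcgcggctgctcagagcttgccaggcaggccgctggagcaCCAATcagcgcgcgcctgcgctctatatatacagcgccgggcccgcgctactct
H2bc8: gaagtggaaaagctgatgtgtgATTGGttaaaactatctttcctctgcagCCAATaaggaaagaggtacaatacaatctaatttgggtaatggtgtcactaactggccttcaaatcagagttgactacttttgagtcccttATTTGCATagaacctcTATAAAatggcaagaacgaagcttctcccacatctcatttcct
H2bc18: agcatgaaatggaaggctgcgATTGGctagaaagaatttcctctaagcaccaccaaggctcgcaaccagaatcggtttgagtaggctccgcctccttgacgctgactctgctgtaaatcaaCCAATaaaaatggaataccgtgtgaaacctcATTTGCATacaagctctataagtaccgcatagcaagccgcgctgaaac
H4c4: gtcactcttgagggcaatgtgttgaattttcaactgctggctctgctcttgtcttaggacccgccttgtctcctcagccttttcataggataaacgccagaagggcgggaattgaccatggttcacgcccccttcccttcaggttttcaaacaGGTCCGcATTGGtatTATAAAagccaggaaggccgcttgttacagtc
H2bc8 and H2bc18 both hold an octamer and a pair of CCAAT matches, and their signals moved in opposite directions. In windows of 300 bases (250 before and 50 after the start), 22 of the 26 genes with a probe set of their own had an entry. The octamer was found in 5 of 7 H2B windows and 3 of 4 H2A windows, and in 1.74% of all 32851 windows. GGTCCG was found in 5 of 5 H4 windows and in 8.25% of all windows. The H1 box was found in 3 of 4 H1 windows and in 7.18% of all. TATAAA was found in 15 of the 22 histone windows against 13.6% of all, and CCAAT in 19 of 22 against 37.4%. The windows of H2bc8 and H2ac8 overlap on opposite strands, and the genes differed in behaviour, with a log2 difference of -1.41 for H2bc8 and 0.01 for H2ac8, whose signal lay low on every array (5.51 to 5.87).

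H1f2 encodes a somatic linker histone and showed the largest fall of the 43. In preleukemic Pax5+/- cells its lowest, median and highest signals were 11.16, 11.66 and 12.02, and in leukemic Pax5+/- cells they were 9.48, 9.71 and 9.89. The ranges did not overlap, and the leukemic values were close together. The difference was -1.96 ± 0.15 (SE), a 3.90-fold lower signal (adjusted p = 7.32e-10, limma). In WT mice H1f2 was at 10.91, 12.10 and 11.95 before leukemia and at 10.12, 10.01, 9.64 and 10.55 in leukemia. These ranges did not overlap either, although the preleukemic WT array 1 gave the lowest preleukemic value. The WT difference was -1.58 ± 0.23 (adjusted p = 3.03e-05, limma), -1.95 ± 0.21 without that array (adjusted p = 5.46e-07) and -1.41 with the Y-linked class as a term (adjusted p = 0.000738). Its fall kept its call in all 24 fits that left out 1 array, in each genotype.

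Markers of other marrow cells differed widely among the leukemic arrays. In Pax5+/- leukemias the granulocyte mean ran from 6.11 to 10.46, against 6.15 to 6.79 in preleukemic Pax5+/- cells. Leukemic Pax5+/- arrays 2 and 7, with granulocyte means of 6.37 and 6.11, had H1f2 signals of 9.73 and 9.74. Array 2 lay inside the preleukemic Pax5+/- granulocyte range and array 7 just below it, and both H1f2 signals lay within the range of the other leukemic Pax5+/- arrays. Preleukemic WT array 1, with a granulocyte mean of 10.38, had the lowest H1f2 signal of the preleukemic arrays, 10.91. These arrays were picked after their values were seen. The monocyte and macrophage mean was 6.07 to 6.24 in preleukemic and 6.69 to 9.03 in leukemic Pax5+/- cells, the megakaryocyte and platelet mean 6.78 to 6.96 and 7.91 to 10.85, the stromal and endothelial mean 6.76 to 6.91 and 7.51 to 8.62, and the B-lineage mean 10.99 to 11.31 and 9.68 to 10.65. Apart from the granulocyte means, these ranges did not overlap between stages, and the part of those cells in the histone differences was not tested.

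The other linker histones had smaller differences than H1f2. H1f3 fell by 0.36 on the log2 scale in Pax5+/- mice (SE 0.08, adjusted p = 0.000651, limma), from a low level of 6.20 ± 0.22 (SD, n = 7) to 5.84 ± 0.14 (n = 10). H1f1 gave -0.29 ± 0.17 and H1f5 gave 0.23 ± 0.16, and neither passed the test (adjusted p = 0.141 and 0.217). H1f5 was also not called in WT mice (0.40 ± 0.25, adjusted p = 0.24), but it was higher there without the preleukemic WT array 1 (0.89 ± 0.18, adjusted p = 0.000528). The shared probe set of H2bc6 and H1f4 cannot separate its H2B gene from its linker histone gene. It fell by 0.67 in Pax5+/- mice (SE 0.11, adjusted p = 3.76e-05) and by 0.58 in WT mice (SE 0.17, adjusted p = 0.0138, and 0.044 without preleukemic WT array 1). Its WT signals were 8.56, 8.22 and 8.57 before leukemia and 7.77, 7.81, 7.81 and 8.10 in leukemia, without overlap. In Pax5+/- mice the ranges overlapped narrowly, at 8.16 to 8.85 and 7.40 to 8.18. The WT call was lost in 1 of the 24 fits that left out 1 array, without preleukemic WT array 3 (adjusted p = 0.0689), and with the Y-linked class as a term (adjusted p = 0.0568).

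Core H2B genes went in both directions. H2bc8 fell by 1.41 in Pax5+/- mice (SE 0.29, 2.65-fold, adjusted p = 0.000293, limma). Its preleukemic Pax5+/- signals lay in separate groups. They were 10.02, 9.59 and 9.55 on arrays 1 to 3 and 8.05, 7.64, 8.07 and 8.35 on arrays 4 to 7. Arrays 1 to 3 also lay above arrays 4 to 7 for H1f2 (11.85 to 12.02 against 11.16 to 11.66), H3c4, H3c7 and H4c9. They lay below them for H2bc1 (7.16 to 7.24 against 7.36 to 7.46) and H2bc9, and most other histone sets overlapped. The split was noticed after the values were seen, and its effect on the calls was not tested. Fits that leave out 1 array do not show that effect. Leukemic Pax5+/- signals of H2bc8 ran from 7.01 over a median of 7.42 to 7.68. Only the preleukemic Pax5+/- array at 7.64 lay inside that range. In WT mice H2bc8 was at 8.03, 8.39 and 9.45 before leukemia and at 7.54, 7.47, 7.60 and 8.26 in leukemia. The difference of -0.91 ± 0.44 was not called (adjusted p = 0.125, and 0.0606 without preleukemic WT array 1). With the Y-linked class as a term the WT difference was -0.41 (adjusted p = 0.596).

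H2bc4, one of the H2B genes known to be made outside S phase as well, varied widely among the leukemias. Its signals in Pax5+/- leukemia ran from 8.71 over a median of 9.03 to 9.91, with 5 of the 10 arrays between 8.71 and 8.83. In preleukemic Pax5+/- cells they ran from 9.12 over 9.80 to 10.08. The difference of -0.54 ± 0.21 passed the test (adjusted p = 0.0296, limma) but lost its call in 7 of the 24 fits that left out 1 array (adjusted p up to 0.0639). In WT mice H2bc4 was at 9.08, 9.44 and 8.84 before leukemia and at 9.74, 9.12, 9.22 and 10.14 in leukemia, a difference of 0.43 ± 0.32 that was not called (adjusted p = 0.32). The difference between the genotypes' stage differences was -0.97 ± 0.38, with a 95% interval from -1.76 to -0.18 before adjustment, and it was not called over all probe sets (adjusted p = 0.513). H2bc21, the other H2B gene of that kind measured here, was not called in Pax5+/- mice (0.14 ± 0.13, adjusted p = 0.359) or in WT mice (0.22 ± 0.20, adjusted p = 0.435).

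H2bc18 rose by 0.51 ± 0.13 in Pax5+/- leukemia (1.43-fold, adjusted p = 0.00171, limma). Its preleukemic Pax5+/- signals were 7.84 to 8.59 with a median of 8.34, and its leukemic ones were 8.54 to 9.07 with a median of 8.80. The ranges met only at their edges. In WT mice it was at 8.93, 8.17 and 7.77 before leukemia and between 8.60 and 8.81 in leukemia, and the difference was called only without preleukemic WT array 1 (0.71 ± 0.17, adjusted p = 0.00293, against 0.14 with it). H2bc14 was higher by 0.32 ± 0.14 (adjusted p = 0.046), a call that 15 of the 24 fits without 1 array did not keep. The other 5 H2B sets were not called in Pax5+/- mice, and H2bc1, a form known from testis, was among them (0.12 ± 0.07, adjusted p = 0.137).

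**Figure D2:**
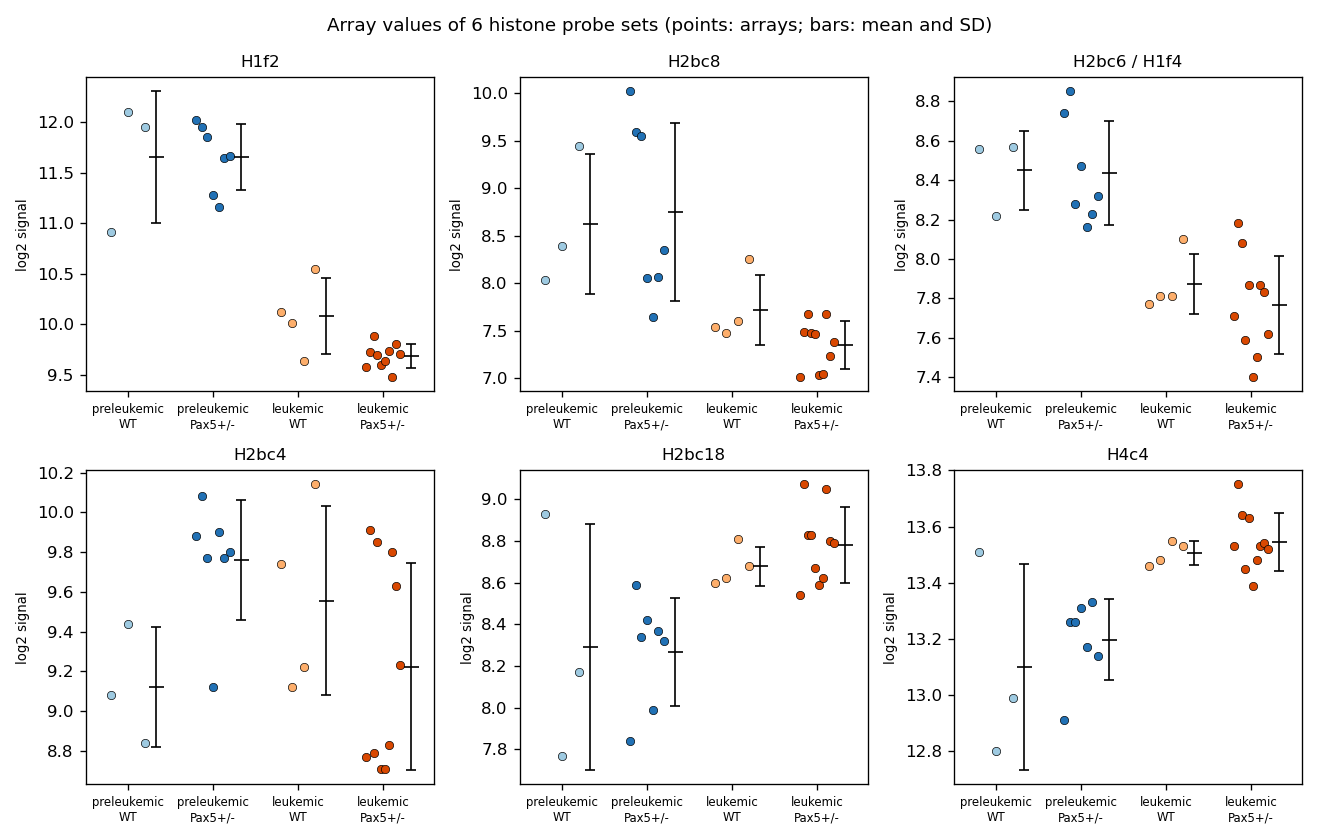
Log2 signal on every array (points) for 6 histone probe sets in the 4 groups, with the group mean and SD (bars). H1f2 shows no overlap between stages in either genotype, H4c4 shows none in Pax5+/- mice, and preleukemic WT array 1 (the first point of its group) sits nearer the leukemic arrays than its group does for H1f2, H2bc18 and H4c4.

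H4c4 had the smallest adjusted p among the histone sets that were higher in Pax5+/- leukemia. Its signals were 12.91 to 13.33 with a median of 13.26 in preleukemic and 13.39 to 13.75 with a median of 13.53 in leukemic Pax5+/- cells. All leukemic arrays lay above all preleukemic ones. The difference was 0.35 ± 0.08, or 1.28-fold (adjusted p = 0.000553, limma). In WT mice H4c4 was at 13.51, 12.80 and 12.99 before leukemia and at 13.46, 13.48, 13.55 and 13.53 in leukemia. The WT difference of 0.41 ± 0.12 passed the test (adjusted p = 0.0117). It grew to 0.61 ± 0.10 without preleukemic WT array 1 (adjusted p = 6.29e-05) and fell short without array 2 or 3 of that group (adjusted p = 0.133 and 0.07), in a fit of the WT groups alone (0.112) and with the Y-linked class as a term (0.0527). On the leukemic Pax5+/- arrays 2 and 7 with low granulocyte means, H4c4 stood at 13.75 and 13.48.

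The 5 shared H4 sets, each assigned to the same 11 genes, were higher in Pax5+/- leukemia by 0.15 to 0.22 (adjusted p = 0.0124 to 0.0363, limma), which is at most 1.16-fold. Their mean over the 5 sets was 13.01 to 13.44 on preleukemic and 13.40 to 13.63 on leukemic Pax5+/- arrays. Preleukemic Pax5+/- array 1 gave the 13.01, and without it 5 histone sets in all were called higher in place of 9. None of the 5 was called with centring on the named probe sets. H4c6 was higher by 0.51 ± 0.22 (adjusted p = 0.0493) and lost that call in 18 of the 24 fits without 1 array. H4c3 (0.44 ± 0.21, adjusted p = 0.0729) and H4c14 (0.28 ± 0.12, adjusted p = 0.0539) had positive differences that missed the threshold, whereas H4c9 and H4c8 gave -0.15 and 0.01.

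The 10 shared H3 sets differed little in signal between stages. They differed by 0.05 to 0.09 in Pax5+/- mice and by 0.02 to 0.06 in WT mice, with no call (adjusted p of at least 0.186 and 0.631, limma; no set had an unadjusted p below 0.05). Their sign was not settled, since 4 of the 10 were above 0 in Pax5+/- mice and 3 in WT mice after centring on the named probe sets, while 6 of the 10 were called higher in Pax5+/- mice after centring on all probe sets. Shared set 4 stood at 13.57 ± 0.10 (SD, n = 7) in preleukemic and 13.63 ± 0.07 (n = 10) in leukemic Pax5+/- cells. On average shared set 4 lay at the 99.9th percentile of an array, near the top of the signal range. How well such bright sets report a difference in RNA was not tested. Of the 3 H3 sets with 1 gene, H3c4 fell by 0.31 (SE 0.08, adjusted p = 0.00361), from 7.49 ± 0.26 to 7.18 ± 0.14. Its preleukemic Pax5+/- signals were 7.62, 7.91 and 7.69 on arrays 1 to 3. On arrays 4 to 7 they were 7.21 to 7.37, inside the leukemic Pax5+/- range of 6.97 to 7.41. H3c15 (-0.50 ± 0.31, adjusted p = 0.166) and H3c7 (-0.30 ± 0.15, adjusted p = 0.0807) were not called, and H3c7 reached the dim level on 5 of the 24 arrays.

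None of the 4 H2A sets was called in Pax5+/- mice. H2ac15 stood at 12.97 ± 0.07 and 12.93 ± 0.06, and H2ac1, a form known from testis, stood at 8.81 ± 0.07 and 8.71 ± 0.11 (adjusted p = 0.0814, limma). H2ac4 was higher in WT leukemia by 1.03 ± 0.38 (2.04-fold, adjusted p = 0.0439), with 9.40, 7.58 and 7.57 before leukemia and 8.98, 9.22, 9.51 and 9.12 in leukemia. Only the preleukemic WT array 1 lay inside the leukemic range. Leaving it out gave 1.64 ± 0.34 (adjusted p = 0.000763), and 7 of the 24 fits without 1 array lost the call. The call was also lost in a fit of the WT groups alone (adjusted p = 0.144) and with the Y-linked class as a term (0.075).

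In WT mice 3 histone sets were higher in leukemia, 2 were lower and 38 were not called, beside 15.0% higher and 16.5% lower over all named probe sets. The shares of the histone sets were 6.98% and 4.65%, both below the background. The rises were H4c4, H2ac4 and the set shared by H4c17 and H4c11, which had 6.60, 5.60 and 5.92 before leukemia and 6.64, 6.78, 6.53 and 7.55 in leukemia (0.83 ± 0.27, adjusted p = 0.0233, limma). Leukemic WT array 4 gave the 7.55, and with that array left out the set was at 0.61 (adjusted p = 0.088). The falls were H1f2 and H2bc6/H1f4. Under the 3 other scalings the WT counts were 3 higher and 2 lower, 3 and 2, and 2 and 2.

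The WT comparison changed most with 1 array. Without preleukemic WT array 1, 18 histone sets were higher and 2 lower, beside 15.6% and 22.4% of all named probe sets, and the median histone difference rose from 0.08 to 0.23 while that over all named probe sets was -0.07. Of the H4 class 10 of 12 were then higher, of H2B 5 of 9, of H2A 2 of 4, of H1 1 of 4 and of H3 0 of 13. H4c6 gave 1.33 ± 0.20 (adjusted p = 2.32e-05, limma), H4c3 1.16 ± 0.26 (0.00162) and H2bc14 0.75 ± 0.17 (0.00217), and the 5 shared H4 sets gave 0.30 to 0.37. This fit rests on 2 preleukemic WT arrays. Without preleukemic WT array 2 or array 3, in contrast, no histone set was called higher.

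**Figure D3:**
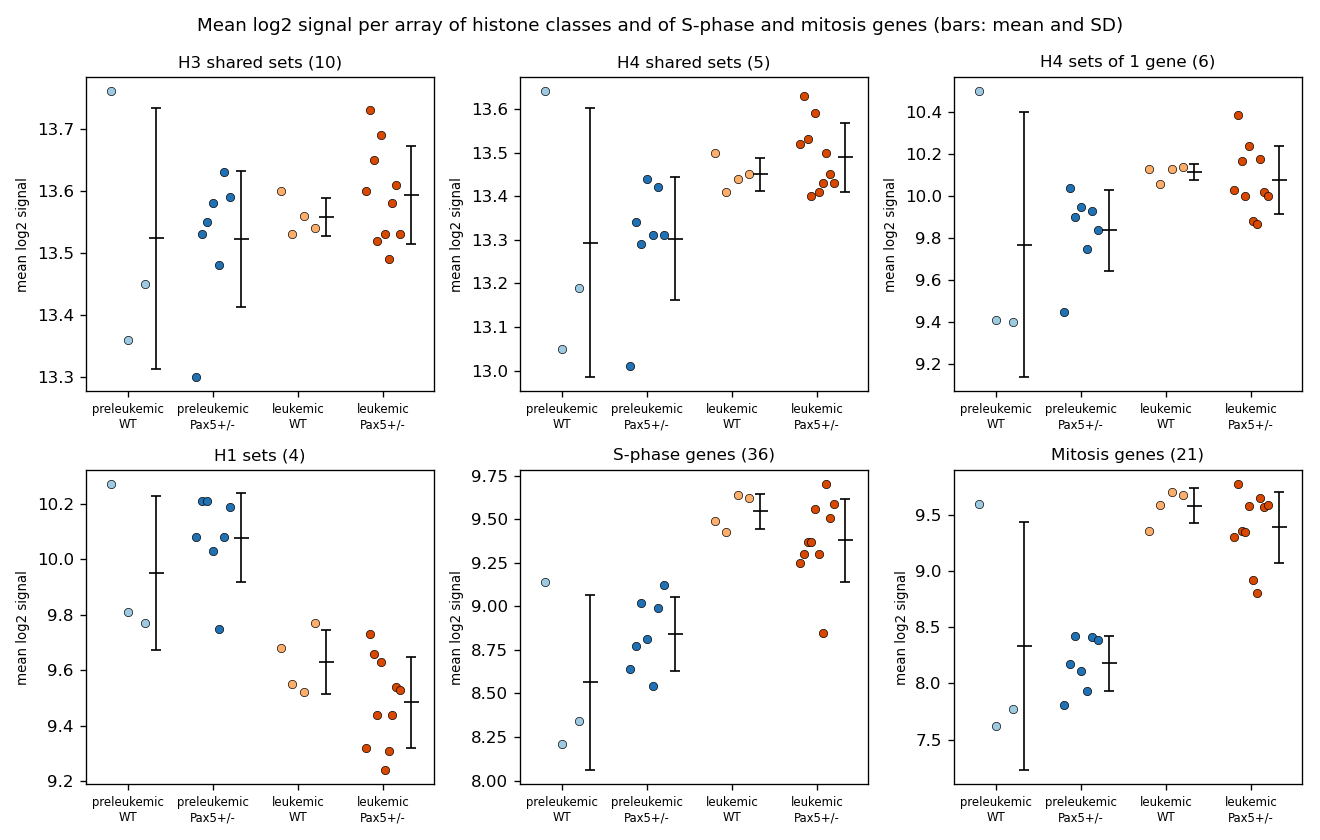
Mean log2 signal per array of the shared H3, shared H4, 1-gene H4 and H1 probe sets and of 36 S-phase and 21 mitosis genes (vertical axes differ between panels), with group mean and SD. Preleukemic WT array 1, the first point of its group, has 13.76 for shared H3 sets and 9.60 for mitosis genes, above the other arrays of its group in all 6 panels.

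No histone set passed the test between the genotypes on all 24 arrays. Leukemic Pax5+/- against leukemic WT cells gave 0 calls among 43, against 0.0342% higher and 0.115% lower over all named probe sets. Beside 1554 of all 23410 named probe sets, 2 of the 43 had an unadjusted p below 0.05 (limma). The smallest were the set of H4c17 and H4c11 (-0.46 ± 0.21, adjusted p = 0.719) and H1f2 (-0.39 ± 0.18, adjusted p = 0.723), followed by H3c15 (-0.54 ± 0.37, adjusted p = 0.923). Erythroid marker means also differed between the leukemic groups, at 7.29 to 9.88 in WT and 6.29 to 7.12 in Pax5+/- leukemias. Of 9 erythroid genes, 4 were lower in Pax5+/- leukemias, beside 0.115% of all named probe sets. The part of erythroid cells in the histone comparison was not tested. Preleukemic Pax5+/- against preleukemic WT cells gave 0 calls, against 0.196% and 0.406%. Beside 2174 of all 23410, 1 of the 43 had an unadjusted p below 0.05, namely H2bc4 at 0.64 ± 0.29 (adjusted p = 0.494). H2ac1 and H2ac15 came next, each at 0.12 ± 0.07 (adjusted p = 0.622 and 0.658). Without preleukemic WT array 1, H2ac15 (0.28, adjusted p = 0.0152) and H4c6 (0.82, adjusted p = 0.03) were higher in Pax5+/- cells and none was lower, beside 0.329% and 0.496% of all named probe sets. The difference between the stage differences gave 0 calls, against 0.115% and 0.00854%. It had 1 unadjusted p below 0.05 among the 43 (H2bc4), beside 1843 of all 23410. H2ac1 (-0.18 ± 0.09, adjusted p = 0.666) and H3c7 (-0.47 ± 0.27, adjusted p = 0.712) followed. For H1f2 that difference was -0.39 with a 95% interval from -0.96 to 0.19, so the data do not settle whether its fall was equal in the genotypes.

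Spread within groups is given as the median SD over the histone sets. In Pax5+/- mice it was 0.161 before leukemia and 0.122 in leukemia over the 43 sets, against 0.114 and 0.128 over all named probe sets. The classes differed, with 0.161 and 0.107 for H4 but 0.217 and 0.256 for H2B and 0.0904 and 0.114 for H2A, and 15 of the 43 are shared sets that repeat each other. In WT mice it was 0.286 before leukemia and 0.0676 in leukemia, and without preleukemic WT array 1 the value before leukemia was 0.0703 over 2 arrays. These differences in spread were not tested.

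Genes that regulate histone messages were called in both directions. The list for histone transcription and processing held 27 names, some of them aliases of the same gene, and 24 genes were measured. In Pax5+/- leukemia 9 were higher and 6 lower, beside 22.2% and 37.4% of all named probe sets. In WT leukemia 9 were higher and 5 lower, beside 15.0% and 16.5%. The list was not tested as a set. Lsm10, a ring subunit of the U7 particle that directs histone RNA cleavage, rose by 0.47 ± 0.07 (adjusted p = 1.21e-05, limma), and Cpsf3, the nuclease that makes the cut, rose by 0.56 ± 0.08 (adjusted p = 2.38e-06). Sympk, a scaffold of the cleavage complex, rose by 1.43 ± 0.34 (adjusted p = 0.00123). Its leukemic Pax5+/- signals ran from 9.47 to 12.64, against 9.42 to 10.45 before leukemia, so the ranges overlapped. Cpsf2, the partner subunit of Cpsf3, fell by 1.28 (SE 0.10, adjusted p = 1.08e-09). Pou2af1, a B-cell coactivator that acts with octamer-binding factors, fell from 12.36 ± 0.18 (SD, n = 7) to 11.01 ± 0.34 (n = 10), a difference of -1.35 ± 0.14. Hinfp, an activator of H4 genes, rose by 0.45 ± 0.10 (adjusted p = 0.000417). Slbp was not called in Pax5+/- mice (-0.13 ± 0.12, adjusted p = 0.335) and was higher in WT leukemia (0.55 ± 0.18, adjusted p = 0.0227). Npat, the coactivator found at histone clusters, was called in neither comparison.

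Histone chaperones carry new histones to DNA. Of 26 measured, 14 were higher and 3 lower in Pax5+/- leukemia, beside 22.2% and 37.4% of all named probe sets, and 12 were higher and 2 lower in WT leukemia, beside 15.0% and 16.5%. Their median difference in Pax5+/- mice was 0.24, against -0.06 over all named probe sets. Ipo4, an import receptor for H3 and H4, rose by 1.53 ± 0.07 (adjusted p = 3.71e-13, limma), from 7.27 ± 0.10 to 8.80 ± 0.18. Set and Ncl rose by 0.97 ± 0.15 and 0.94 ± 0.09. Chaf1b, a subunit of the assembly factor that works at the replication fork, rose by 0.87 ± 0.14. Asf1a, a chaperone of H3 and H4, fell by 1.08 (SE 0.11, adjusted p = 3.1e-08), whereas its paralogue Asf1b was not called (0.21 ± 0.17). Daxx and Hira, which serve replication-independent deposition of H3.3, fell by 0.34 and 0.24.

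Of 11 measured histone genes expressed independently of replication, 3 were higher and 5 lower in Pax5+/- leukemia, and 2 were higher and 2 lower in WT leukemia. With so few genes these counts lie near the shares of all named probe sets, 22.2% and 37.4% in Pax5+/- mice and 15.0% and 16.5% in WT mice. Macroh2a1 rose by 0.78 ± 0.07 (adjusted p = 1.88e-08, limma), H2ax, the variant phosphorylated at DNA breaks, by 0.73 ± 0.18 (adjusted p = 0.00204), and H2az1 by 0.29 ± 0.10 (adjusted p = 0.0143). H2az2 fell by 0.36 (SE 0.13, adjusted p = 0.0239), and the linker histone H1f10 by 0.35 (SE 0.15, adjusted p = 0.047). H3f3a, H1f7 and H1f8 were also lower. In Pax5+/- leukemia the means of H3f3a and H1f8, 5.12 and 5.00, lay below the dim level of those arrays (5.18 to 5.24), so these calls say little about the genes.

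Genes of DNA replication and mitosis give the proliferative setting. In Pax5+/- leukemia 28 of 36 S-phase genes were higher and 1 was lower, with a median difference of 0.55, and 21 of 21 mitosis genes were higher, with a median of 1.29, beside 22.2% higher and 37.4% lower over all named probe sets. In WT leukemia 31 of 36 and 20 of 21 were higher and none was lower, with medians of 0.98 and 1.24, beside 15.0% higher and 16.5% lower. The mitosis mean was 7.81 to 8.42 on preleukemic and 8.80 to 9.77 on leukemic Pax5+/- arrays, without overlap. The median of 0.07 over the histone sets in Pax5+/- mice stands beside those values as a description, since array signals of different probe sets need not respond alike.

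**Figure D4:**
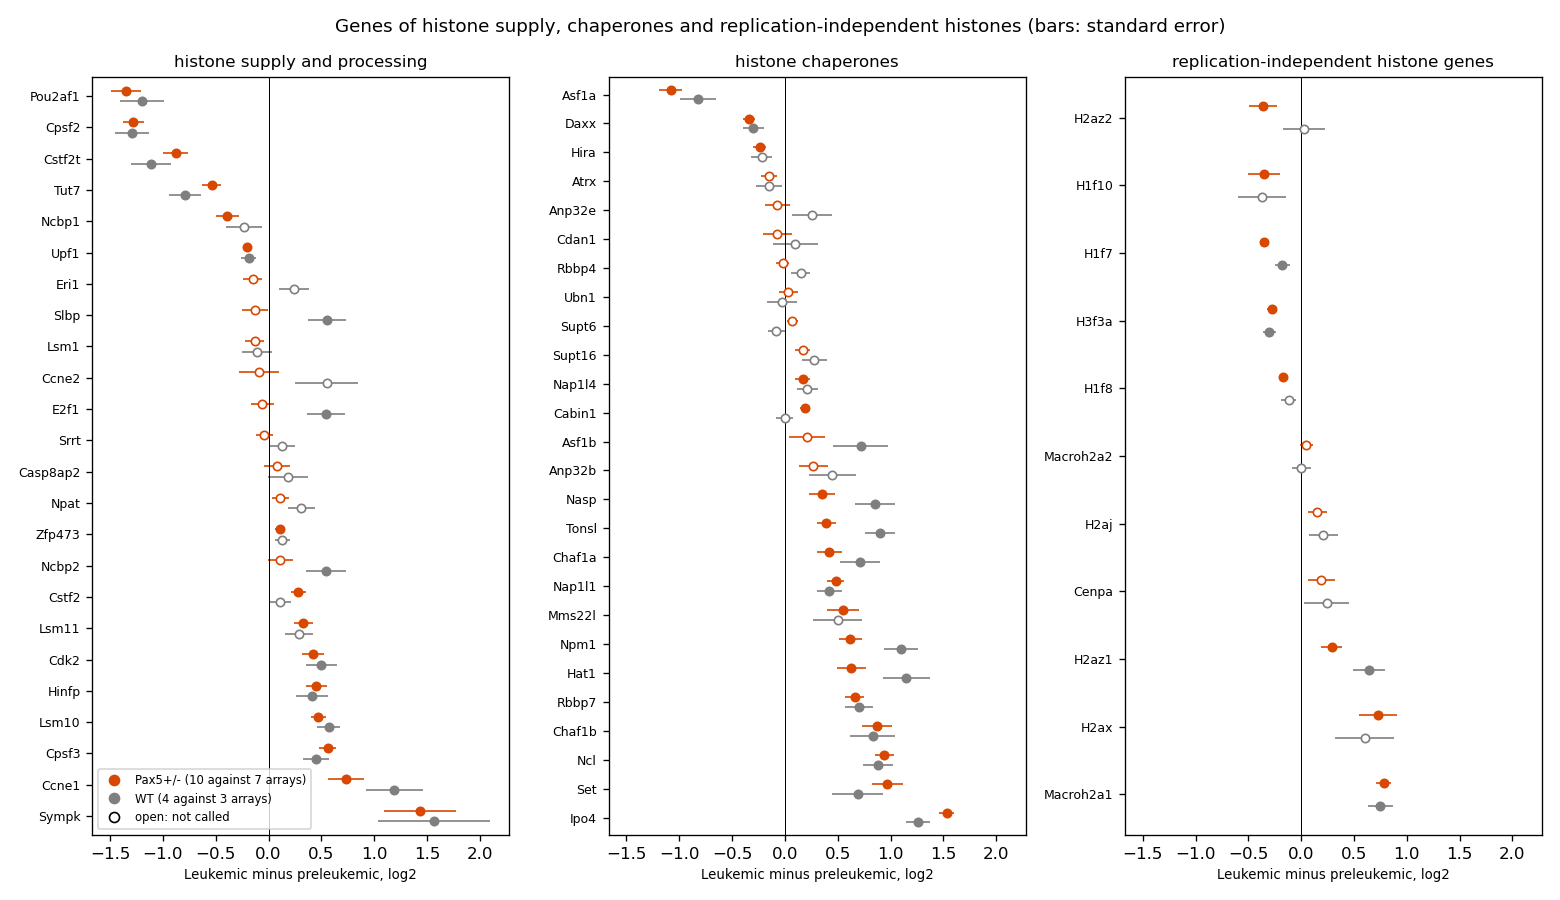
Log2 difference between leukemic and preleukemic cells (horizontal axis, with standard errors) for genes of histone supply and processing, histone chaperones and replication-independent histones in Pax5+/- and WT mice; filled points passed an adjusted p of 0.05. Ipo4 (1.53) and Sympk (1.43) lie farthest right in Pax5+/- mice, and Pou2af1 (-1.35) and Cpsf2 (-1.28) farthest left.

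Some probe sets of related histone genes fell outside the choice of symbols. The 7 shared H2B sets, each with 14 or 15 symbols of which 1 did not match the rule, differed by -0.04 to 0.05 in Pax5+/- mice and were not called. H4f16 was higher by 0.45 ± 0.13 in Pax5+/- mice (adjusted p = 0.00505, limma) and by 0.56 ± 0.20 in WT mice (adjusted p = 0.0381). H2aw was lower by 0.45 in WT leukemia (SE 0.15, adjusted p = 0.0251) and was not called in Pax5+/- mice (-0.18 ± 0.10, adjusted p = 0.113). Before leukemia H2aw was at 10.98 ± 0.09 in Pax5+/- and 11.55 ± 0.15 in WT cells, a difference of -0.57 ± 0.14 that was not called (adjusted p = 0.0537). The testis linker histone H1f6 lay low, at 5.74 ± 0.10 and 5.47 ± 0.18, and was lower by 0.28 in Pax5+/- leukemia (adjusted p = 0.00138).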

How the data were processed

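The authors deposited log2 signals of an Affymetrix mouse gene array, made with RMA and the oligo package per the submitters' processing notes, without versions. RMA removes a modelled background and gives the probe signals of all arrays 1 common distribution. It then condenses the probes of a set to a single log2 value, and differences of dim sets come out too small. The medians of the deposited values still differed between arrays, as given above. The deposited values ran from 3.48 to 14.20 and none was missing; scanner files were not used here. Probe sets were named from the platform's annotation, which gave 21789 sets 1 symbol and 1621 several, and left 12146 unnamed.

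Stage and genotype labels defined the groups, and the labels call the arrays biological replicates. No 2 arrays were identical. One model with 4 group means was fitted to all 24 arrays and 23410 named probe sets without a filter (limma 3.58.1, R 4.3.3; 20 residual degrees of freedom), with 5 two-sided contrasts and Benjamini-Hochberg adjustment within each. Errors of differences are the model's standard errors. On simulated data for 23410 probe sets, changes of 1 or 0.5 (log2) were added to a small random sample of sets, with normal noise and no other change. The Pax5+/- contrast recovered 95% and 76% of them, and the WT contrast 91% and 62%. The difference between the stage differences recovered 76% and 49%. For the genotype contrasts recovery was 89% and 77% in leukemic and 93% and 75% in preleukemic cells. Recovery for histone sets was not measured. Before leukemia, the median SD of those with 1 gene was 0.257 in Pax5+/- and 0.414 in WT cells, against 0.114 and 0.132 over all named sets.

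Histone members and gene lists were chosen with earlier results of these data known. Named with values were, per histone class, the called members with the largest rises and falls per stage comparison, the 3 with the smallest p in each other comparison, the known polyadenylated and testis forms, and the highest and lowest signals; others named to complete a class were chosen after their values were seen. Alternatives covered scaling, filters, the variance model, samples and covariates. The number of arrays limits the precision. Promoter sequences are RefSeq's. The labels give no batch or scan date.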

Additional observations from a re-analysis of the deposited data

Results flagged for a closer look

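In groups of 4 to 10 arrays, the highest or lowest array of the named histone sets was compared with its nearest neighbour by Dixon's criterion. This marked 8 of 57 groups checked. Chance marks about 1 in 20 of independent groups. The histone sets share the same arrays and the marks fell on few of them, so the count is not read as an excess. In preleukemic Pax5+/- cells, array 1 was low for H2bc14 (10.90, the others 11.27 to 11.54) and for H4c6 (10.11, the others 10.76 to 11.02). In the same group array 2 was high for the set of H4c17 and H4c11 (7.04, the others 5.88 to 6.15) and for H3c7 (6.48, the others 5.04 to 5.35), and array 4 was low for H2bc4 (9.12, the others 9.77 to 10.08). In leukemic WT cells, array 4 was high for H2bc8 (8.26, the others 7.47 to 7.60), H2bc6/H1f4 (8.10, the others 7.77 to 7.81) and H3c15 (7.89, the others 6.17 to 6.36).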

How the results depend on the processing

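Over the 19 histone sets named with values and 5 comparisons, 3301 alternative values were computed. Of these, 3115 kept direction and call, 73 lost the call, 16 gained one, 97 changed sign without a call on either side, and 0 turned a called direction. Only results called in the main fit could lose a call, and the genotype comparisons and the difference of stage differences held none. The 73 are therefore not to be read as a share of 3301, and the losses fell mostly on calls near the threshold, such as H4c6 and H2bc14. Higher calls in Pax5+/- leukemia (9) became 17 with centring on all probe sets, 2 with centring on the named probe sets (an alternative chosen after seeing the data), 2 with the replicate block, 4 among sets with 1 gene and 0 at 2-fold or more, and 5 to 12 with 1 array left out. Lower calls (6) became 2 at 2-fold and 5 to 7 with 1 array left out. Higher calls in WT leukemia (3) became 0 in a fit of the WT groups alone, 0 with the replicate block, 1 with the Y-linked class as a term, 1 at 2-fold and 0 to 18 with 1 array left out. Lower WT calls (2) became 1 with the Y-linked class, 1 at 2-fold, 1 among sets with 1 gene and 1 to 2 with 1 array left out. Higher preleukemic genotype calls (0) became 0 to 2 with 1 array left out. The fits at 2-fold and with 1 gene test fewer sets or a stricter limit; for the others the cause was not tested. Same-numbered arrays did not deviate together (24 pairs, median correlation -0.01, from -0.35 to 0.30), so the numbers were not taken to pair mice.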

Other observations

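A few histone sets with 1 or 2 genes had high values for their group on the same arrays. H3c15 stood at 7.53 on preleukemic Pax5+/- array 2 and at 7.89 on leukemic WT array 4, and the set of H4c17 and H4c11 stood at 7.04 and 7.55 on those arrays. H3c7 stood at 6.48 and 5.61 there. H3c15 was also at 7.60 on preleukemic WT array 1 and at 7.38 on 1 leukemic Pax5+/- array. These arrays were picked after their values were seen, and nothing was tested.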
